A study of Mus musculus with 15 samples.

Results

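The response of the spleen to vesicles from mesenchymal stem cells after irradiation alone was examined in 6 samples, 3 from irradiated mice that received the vesicles (WBIR+MSC-EVs) and 3 from irradiated mice that did not (WBIR). These are 6 of the 15 samples of the series, chosen by their labels, and all 547 endogenous genes of the 561 genes in the table were followed. The other 14 genes are the reference genes of the nCounter Mouse Immunology Panel, an assay that captures each mRNA with a barcoded probe pair and counts the barcodes without amplification. Mice were female C57BL/6J aged 6 to 8 weeks. Both groups carried the same injury, irradiation of the whole body (WBIR) with 9 Gy from a cesium source. Extracellular vesicles (EVs) were collected from the medium of a bought C57BL/6J bone marrow mesenchymal stem cell (MSC) culture, and 1e+10 of them were given to each treated mouse 72 hours after irradiation. Spleens were taken 48 hours after the EVs and made into cell suspensions, and red blood cells were lysed before RNA was prepared. The labels of the untreated irradiated samples name no vehicle, and the study's text describes saline. The remaining groups were Sham, which was not irradiated, and 2 groups in which a burn covering 20% of the body surface was added to the 9 Gy (RCI), either with MSC-EVs or without. Whether the 3 samples of a group came from 3 mice was not settled by the labels or the methods, so p-values measure the spread between these samples, which may be technical.

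MSCs are supporting cells of the bone marrow, and the vesicles they release carry proteins and RNA to other cells, with a known capacity to dampen inflammation. Whole-body irradiation strips the spleen of lymphocytes, above all B cells, and leaves macrophages and stroma as a larger share of the organ. Among the signals read by the panel, NF-kB is a family of transcription factors held in the cytoplasm by inhibitors such as IκBα, the product of *Nfkbia*, and *Nfkbia* is itself an NF-kB target, so that the pathway resets itself. In the JAK-STAT pathway, cytokine receptors activate STAT factors, and STAT targets such as *Socs1* and *Cish* encode proteins that shut the receptors down. CXCR4 is the receptor for the stromal chemokine CXCL12 and directs blood progenitors and lymphocytes to marrow and spleen.

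The samples differed in depth. Total counts ranged from 204412 to 360995 in WBIR and from 90127 to 598872 in WBIR+MSC-EVs, where replicate 1 had the lowest total and the range was 6.64-fold. In this sample 191 endogenous genes had fewer than 20 counts, against 115 and 117 in the other 2 treated samples. Values below are counts scaled to the geometric mean of the 14 reference genes, called scaled counts. The 14 reference genes, relative to their mean, shifted between the groups by -0.29 (*Polr1b*) to 0.40 (*Tbp*) on the log2 scale, and 0 of them shifted by over 2-fold. After scaling, replicate 1 of the treated group still deviated from the other 2 treated samples in a way that followed the count. Among genes with a mean raw count of 20 to 50 over the 6 samples, it was higher than those 2 by a median of 0.86 on the log2 scale, and among genes with at least 300 counts it was lower, by a median of -0.22. WBIR replicate 1, the untreated sample with the lowest total, showed the same order at 0.26 and -0.17. The part of this in the results for low-count genes was not tested, and several such genes are also given without treated replicate 1.

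**Figure D1:**
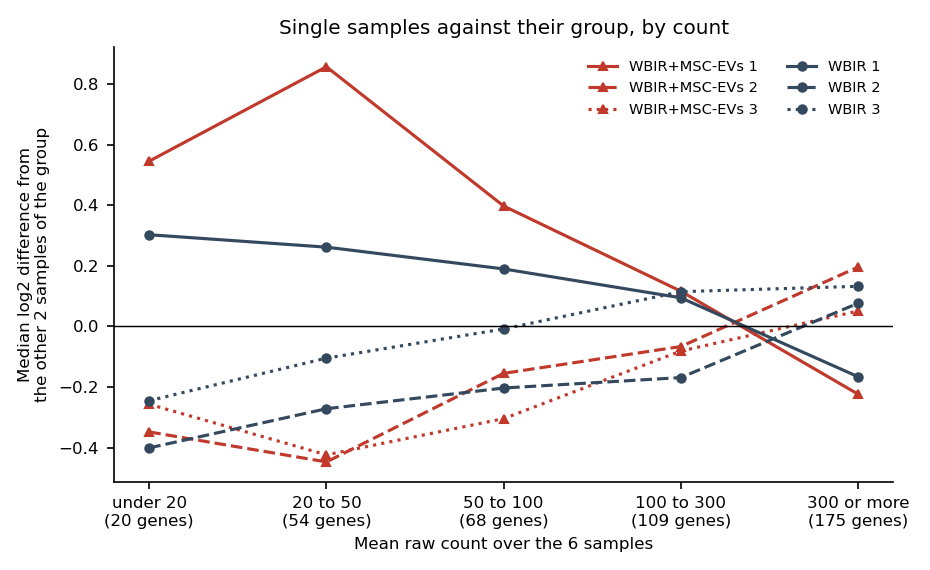
Median log2 difference of each sample's scaled counts from the other 2 samples of its group (vertical axis), for tested genes binned by their mean raw count over the 6 samples (horizontal axis, with the number of genes in each bin). WBIR+MSC-EVs replicate 1 lies highest in the 3 bins under 100 counts, at up to 0.86 for 20 to 50 counts, and lowest at 300 counts or more, at -0.22.

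To determine whether MSC-EVs altered immune gene expression in the irradiated spleen, WBIR+MSC-EVs was compared with WBIR. No gene passed the test. Of the 11 genes with the smallest unadjusted p, *Cxcr4*, *Nfkbia*, *Socs1*, *Cish*, *Icosl* and *Cd69* had fitted fold changes of about 1.4 to 1.8 over untreated spleens. Every treated sample lay above every untreated one in 9 of the 11, including these, but not in *Il7r* or *Muc1*. The 11 were picked by p, and the groups did not overlap in 38 of all 426 genes (8.92%). *Irf1*, named after its values were seen, lay lower in every treated sample. None of these differences held after correction for the 426 genes tested. With edgeR's quasi-likelihood test and Benjamini-Hochberg adjustment, 0 of 426 genes (0%) had an adjusted p under 0.05 (lowest value 0.997). The unadjusted p was under 0.05 for 11 genes (2.58%), and in all 11 the estimate was higher in treated spleens. With no gene differing, 21.3 of 426 would be expected to fall under that threshold. With DESeq2 and with limma the adjusted count was also 0 and the unadjusted count was 9 in both. With TMM scaling the unadjusted count was 6, of which 5 were higher and 1 was lower. With the replicate number as a block, a pairing taken from these data, it was 7 (1.64%) and the adjusted count 0. Some settings gave more, with 0 genes called in each. The unadjusted count was 15 with only the 6 compared samples in the fit, where the smallest edgeR adjusted p was 0.337. It was 16 with the 12 irradiated samples and 17 with the per-gene unequal-variance test. Leaving out WBIR+MSC-EVs replicate 1 gave 5 genes at that threshold and leaving out WBIR replicate 2 gave 3.

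How large a change the data allow was read from the 95% confidence interval of each gene's log2 fold change (log2FC). For 232 of the 426 genes (54.5%) the interval lay within 2-fold in both directions, and for 416 (97.7%) within 4-fold. The median half-width of the interval was 0.73 on the log2 scale, or 1.65-fold. Genes with many counts were measured more closely. The interval lay within 2-fold for 129 of 175 genes with a mean of 300 raw counts or more and for 6 of 54 genes with 20 to 50. Estimates were small for most genes, with an absolute log2FC under 0.5 for 388 and over 1 for 2, *Camp* and *Muc1*. Both rest on few counts and on 1 or 2 samples. *Camp*, which encodes the antimicrobial peptide cathelicidin, had scaled counts of 5.15, 3.04 and 1.68 in WBIR and of 5.89, 3.93 and 21.4 with MSC-EVs, a log2FC of 1.85 ± 1.09 (SE) with an edgeR unadjusted p of 0.114. Without treated replicate 3 the log2FC was 0.48. The value in that sample alone lay above the untreated range by more than 1 scaled count.

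The direction of the estimates depended on the scaling. The log2FC was above 0 for 307 of 426 genes (72.1%) with a median of 0.11. With TMM scaling, which centres on the bulk of the endogenous genes, the median was -0.01 and 204 were above 0. Differences are given relative to the reference genes, and subtracting 0.11 sets them relative to the median gene. Treated and untreated samples did not overlap in 38 genes (8.92%), with the treated samples above in 30 (7.04%) and below in 8 (1.88%). Within same-numbered pairs of samples, 106 genes (24.9%) were higher in all 3 pairs and 33 (7.75%) were lower in all 3. The labels do not say what a number marks, and the pairing was taken from these data.

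**Figure D2:**
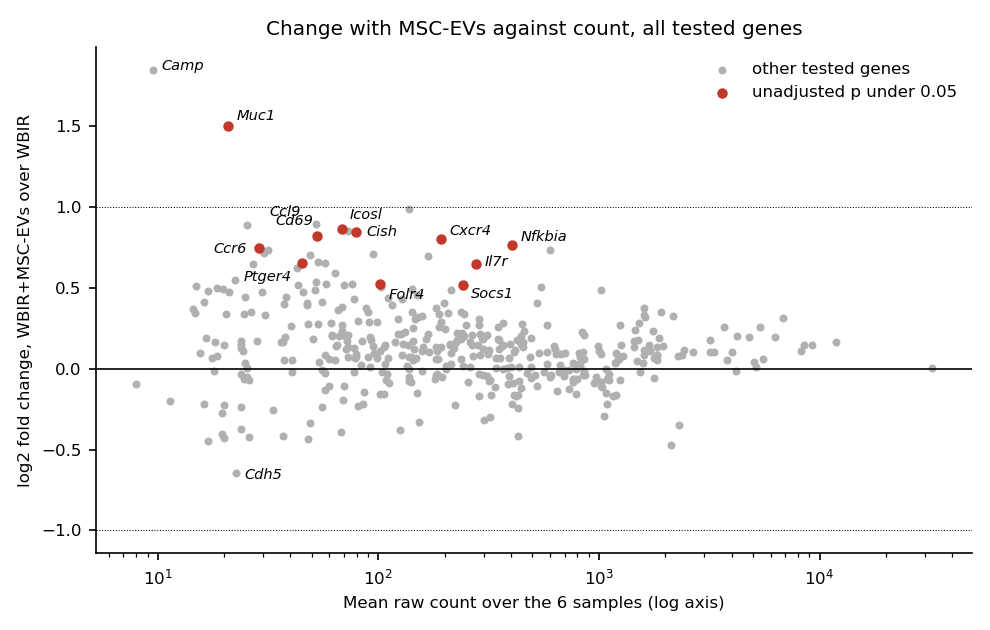
Log2FC of WBIR+MSC-EVs over WBIR (vertical axis) against the mean raw count over the 6 samples (horizontal axis, log scale) for the 426 tested genes, with dotted lines at 2-fold. The 11 genes with an unadjusted edgeR p under 0.05 are red and all lie above 0, and only *Camp* and *Muc1* lie beyond 2-fold.

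Of the genes that the study's text takes up for MSC-EVs, *Nfkbia*, *Cxcr4*, *Socs1* and *Cish* were among the 11, and *Stat5a* and *Pparg* were not. *Nfkbia* had 225, 240 and 282 scaled counts in WBIR and 418, 403 and 451 with MSC-EVs. All 3 treated samples lay well above the untreated ones and close to each other, and the lowest treated value was in a sample with 718 raw counts. The log2FC was 0.77 ± 0.33 (SE, n = 3 each), with an edgeR unadjusted p of 0.0366. It was 0.00821 with the replicate block, whose pairing was taken from these data. With TMM, median-of-ratios and total-count scaling the p was 0.163, 0.167 and 0.114. Its interval ran from 0.06 to 1.48, so that both a negligible change and a change of over 2-fold were allowed. This interval comes from the fit of all 15 samples and also carries the spread of the Sham and RCI samples. With only the 6 compared samples in the fit, the unadjusted p of *Nfkbia* was 0.000792 and its adjusted p 0.337.

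The 250 bases upstream of the annotated start of *Nfkbia* are shown because they hold a match to the binding motif of NF-kB, the factor that its product inhibits. They are on the minus strand of chromosome 12 in GRCm38.p6, chr12:55492648-55492897, taken from RefSeq, and capitals mark the match:

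*Nfkbia*: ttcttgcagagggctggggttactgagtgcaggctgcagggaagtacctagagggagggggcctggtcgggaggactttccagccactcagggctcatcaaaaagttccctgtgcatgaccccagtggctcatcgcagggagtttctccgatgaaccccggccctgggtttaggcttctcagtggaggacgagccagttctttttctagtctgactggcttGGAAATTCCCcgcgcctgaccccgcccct

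The match, read on the opposite strand as GGG and TTTCC separated by any 2 bases, lies 29 to 20 bases before the start. Of 32851 mouse promoter windows of this length, 1.41% held this form of the NF-kB motif on either strand, 1.53% held the other form searched, GGG and TTCCC separated by any 2 bases, and 7.02% held TTCNNNGAA, the motif of STAT factors. Windows were found for 12 of the 13 genes searched, which were the 12 with the smallest p among higher genes and *Stat5a*. *Cd69* had no entry. *Ccr6* held the STAT motif and the second NF-kB motif in its windows, *Il7r* held the STAT motif, and the other 9 held no match to these letters. The matches describe sequence and were not tested for binding.

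Of the other NF-kB feedback genes, *Tnfaip3*, which encodes the inhibitor A20, had 77.2, 80.0 and 95.2 scaled counts in WBIR and 106, 101 and 124 with MSC-EVs. *Bcl3*, which encodes an atypical IκB protein, had 111, 79.0 and 137 in WBIR and 165, 148 and 138 with MSC-EVs. Treated samples lay above untreated ones in both genes, narrowly for *Bcl3*, with log2FC of 0.39 ± 0.66 and 0.46 ± 0.32 and edgeR unadjusted p of 0.564 and 0.180. These 2 genes were chosen after their values were seen. In the whole list of NF-kB factors and inhibitors the treated samples lay above the untreated ones in 3 genes and below them in 1, beside 38 of all 426 genes (8.92%) without overlap. Across the 16 tested genes of NF-kB factors and inhibitors the log2FC was above 0 for 11 (68.8%), with a median of 0.13 beside 72.1% and 0.11 for all tested genes. Called genes numbered 0, and the lowest member was *Tollip*, an adaptor that restrains Toll-like receptor signalling, at -0.10.

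*Cxcr4* had 111, 117 and 126 scaled counts in WBIR and 215, 166 and 237 with MSC-EVs. The untreated samples were tightly grouped and the treated ones spread over a range of their own above them. The log2FC was 0.80 ± 0.26 (SE), an interval of 0.23 to 1.37, with an edgeR unadjusted p of 0.00895. With the replicate block, whose pairing was taken from these data, the p was 0.00475. Over the alternatives other than leaving out samples, its log2FC ranged from 0.68 to 0.89 and the unadjusted p from 0.0027 to 0.0465. Its ligand *Cxcl12* was higher within each same-numbered pair, with 854, 246 and 268 scaled counts in WBIR replicates 1, 2 and 3 and 918, 535 and 366 in the treated replicates of the same number. The groups overlapped because replicate 1 was high in both. The log2FC was 0.40 ± 0.45 with an edgeR unadjusted p of 0.388, and with the block 0.56 with a p of 0.0768. Without treated replicate 1 the estimate was -0.01.

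Of the 6 tested feedback inhibitors of cytokine signalling, 2 were among the 11 genes, beside 11 of all 426 tested genes (2.58%). *Socs1*, which encodes a suppressor of JAK kinases, had 158, 145 and 192 scaled counts in WBIR and 215, 232 and 260 with MSC-EVs. The groups did not overlap, and the log2FC was 0.52 ± 0.22 with an edgeR unadjusted p of 0.0309, which became 0.0515 with the block. *Cish*, which encodes a related inhibitor induced by STAT5, had 52.8, 44.6 and 52.2 scaled counts in WBIR and 109, 78.6 and 84.1 with MSC-EVs. The treated samples were all higher, by a log2FC of 0.84 ± 0.31 (unadjusted p of 0.0166), and by 0.71 with a p of 0.0545 without treated replicate 1. *Ptpn2*, a phosphatase that removes the activating phosphate from JAK and STAT proteins, had 142, 151 and 142 in WBIR and 159, 175 and 184 with MSC-EVs, a log2FC of 0.26 ± 0.22 (unadjusted p of 0.256), and was named after its values were seen. All 6 tested inhibitors had a log2FC above 0, beside 72.1% of all tested genes, with a median of 0.20, and 0 were called. With TMM scaling 4 of the 6 were above 0.

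Of the 11 tested JAK kinases and STAT factors 5 had a log2FC above 0 (45.5%, beside 72.1% of all tested genes), and the median was -0.06. The direction depended on the processing, with 2 above 0 and a median of -0.18 under TMM scaling, and 6 above 0 and a median of 0.05 without treated replicate 1. *Stat5a* had 109, 98.2 and 94.4 scaled counts in WBIR and 100, 89.3 and 82.5 with MSC-EVs. The ranges overlapped, and the log2FC was -0.16 ± 0.29 with an edgeR unadjusted p of 0.591 and an interval of -0.78 to 0.46, so a change of 2-fold in either direction lay outside it. *Stat5b*, which encodes the closely related second STAT5 protein, had 269, 276 and 312 in WBIR and 365, 355 and 326 with MSC-EVs, without overlap, and a log2FC of 0.28 ± 0.23 (unadjusted p of 0.230).

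Interferon response genes had some of the lower estimates. *Irf1*, which encodes an interferon regulatory factor, had 1255, 934 and 951 in WBIR and 874, 898 and 787 with MSC-EVs (log2FC -0.29 ± 0.33, unadjusted p of 0.384). *Psmb10* and *Psmb9*, which encode subunits of the interferon-inducible immunoproteasome, had log2FC of -0.25 ± 0.25 and -0.22 ± 0.23, without overlap for *Psmb10* alone. WBIR replicate 1 was the highest sample in these 3 genes. Of 20 tested genes of interferon response and nucleic acid sensing 14 had a log2FC below 0, 6 were above 0 (30.0%, beside 72.1% of all tested genes), and the median was -0.04. This split changed with the samples and the scaling, to 11 above 0 without treated replicate 1 and to 3 above 0 with TMM scaling.

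Other lower genes named by p were *Cdh5*, *Il12rb2* and *Phlpp2*. *Cdh5*, which encodes the endothelial junction protein VE-cadherin, had the lowest log2FC of all tested genes, -0.65 ± 0.42 (unadjusted p of 0.142). Its scaled counts were 42.5, 20.3 and 15.2 in WBIR and 14.7, 16.8 and 16.5 with MSC-EVs, so the estimate came mainly from WBIR replicate 1. *Il12rb2*, which encodes a chain of the interleukin-12 receptor, had 97.8, 47.6 and 64.9 in WBIR and 55.9, 37.6 and 66.5 with MSC-EVs and overlapped. *Phlpp2*, which encodes a phosphatase of the kinase AKT, had 54.0, 55.7 and 48.9 in WBIR and 44.1, 47.7 and 42.3 with MSC-EVs, a small difference (log2FC -0.24 ± 0.22) without overlap.

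**Figure D3:**
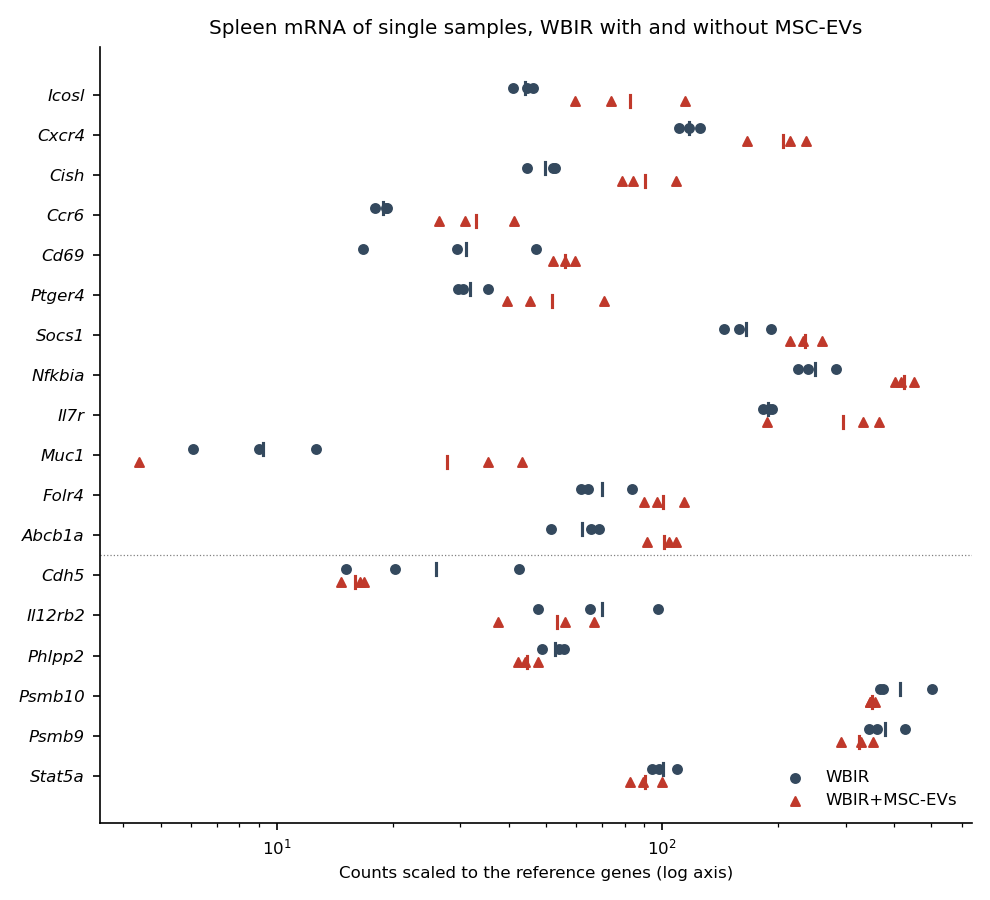
Scaled counts (horizontal axis, log scale) of single samples for the 12 higher genes with the smallest p, 5 of the 6 lower genes with the smallest p below the dotted line, and *Stat5a*. Circles are WBIR, triangles are WBIR+MSC-EVs (n = 3 each) and vertical bars are group means. Treated samples lie to the right of all untreated ones in *Cxcr4* and *Nfkbia*, but not in *Muc1* or *Il7r*, and to the left in *Psmb10*.

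*Icosl*, which encodes the ligand of the T cell costimulator ICOS, had the smallest p. It had 41.2, 44.6 and 46.3 scaled counts in WBIR and 115, 73.6 and 59.4 with MSC-EVs. The groups did not overlap, and the highest value was in treated replicate 1, from 39 raw counts. The log2FC was 0.86 ± 0.27 (interval 0.27 to 1.45, edgeR unadjusted p of 0.00715), and 0.59 with a p of 0.0410 without treated replicate 1. *Cd69*, which encodes an early activation marker that retains lymphocytes in tissue, had 16.7, 29.4 and 47.2 in WBIR and 55.9, 59.5 and 52.2 with MSC-EVs. Here the untreated samples were the scattered ones, and the log2FC was 0.82 ± 0.33 (unadjusted p of 0.0243). It was 0.54 without WBIR replicate 1 and 1.26 without WBIR replicate 3.

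*Folr4*, an older name of *Izumo1r* that encodes a folate receptor relative found on regulatory T cells, had 64.3, 61.8 and 83.4 scaled counts in WBIR and 97.1, 89.8 and 114 with MSC-EVs (log2FC 0.52 ± 0.24, unadjusted p of 0.0429). Its groups did not overlap. *Ctla4* and *Pdcd1*, which encode inhibitory receptors of T cells, also had every treated sample above every untreated one, and were named after their values were seen. *Ctla4* had 28.3, 31.4 and 32.0 in WBIR and 47.1, 40.4 and 45.1 with MSC-EVs (log2FC 0.52 ± 0.33, unadjusted p of 0.136, and 0.48 without treated replicate 1). *Pdcd1* had 20.6, 17.2 and 20.2 in WBIR and 41.2, 21.9 and 36.3 with MSC-EVs (log2FC 0.73 ± 0.38, unadjusted p of 0.0724, and 0.59 without treated replicate 1). All 20 tested genes of the costimulatory and inhibitory pairs had a log2FC above 0, with a median of 0.25 beside 0.11 for all tested genes. With TMM scaling 19 were above 0 with a median of 0.14, and without treated replicate 1 it was 18 with a median of 0.34. Called genes numbered 0 of the 20, and the groups did not overlap in 3, beside 38 of all 426 genes (8.92%).

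*Ccr6*, which encodes a chemokine receptor of B cells and Th17 cells, had 18.02, 19.2 and 19.4 scaled counts in WBIR and 41.2, 30.9 and 26.4 with MSC-EVs, from 14 to 55 raw counts. *Ptger4*, which encodes a prostaglandin E2 receptor, had 29.6, 30.4 and 35.4 in WBIR and 70.6, 45.5 and 39.6 with MSC-EVs. In both genes the groups did not overlap and treated replicate 1 was highest. Their log2FC were 0.74 ± 0.28 and 0.65 ± 0.27 (edgeR unadjusted p of 0.0183 and 0.0271), and 0.60 and 0.42 without treated replicate 1 (p of 0.0597 and 0.123).

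*Il7r*, which encodes the interleukin-7 receptor needed for lymphocyte survival, had 183, 189 and 193 scaled counts in WBIR and 333, 188 and 367 with MSC-EVs. Only 2 of the 3 treated samples stood above the untreated range (log2FC 0.64 ± 0.29, unadjusted p of 0.0411). *Muc1*, which encodes a membrane mucin, had 9.01, 6.08 and 12.6 in WBIR and 35.3, 43.2 and 4.40 with MSC-EVs. It was high in 2 treated samples and lowest of all in the other (log2FC 1.498 ± 0.668, unadjusted p of 0.0419). Single samples and the floor decided its size, with a log2FC of 0.69 (p of 0.387) without treated replicate 2, 2.08 (p of 0.000644) without treated replicate 3, and 0.76 (p of 0.221) with counts under 20 set to 20. *Cxcr5*, which encodes the chemokine receptor that leads cells to B cell follicles, had 33.5, 27.3 and 28.6 in WBIR and 55.9, 40.4 and 44.0 with MSC-EVs, and was named after its values were seen (log2FC 0.62 ± 0.40, unadjusted p of 0.142, and 0.50 without treated replicate 1). *Abcb1a*, which encodes the drug efflux pump P-glycoprotein, ranked next among the higher genes. It had 65.6, 68.9 and 51.4 in WBIR and 109, 104 and 91.3 with MSC-EVs, without overlap (log2FC 0.71 ± 0.35, unadjusted p of 0.0653 and, with the block taken from these data, 0.0184). *Ahr*, which encodes the aryl hydrocarbon receptor, likewise had all treated samples above the untreated ones (log2FC 0.70 ± 0.44, unadjusted p of 0.134).

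*Il1b*, which encodes the cytokine interleukin-1β, had 116, 47.6 and 88.5 scaled counts in WBIR and 218, 189 and 96.8 with MSC-EVs. The groups overlapped, and the interval of its log2FC of 0.99 ± 0.88 ran from -0.90 to 2.88. *Ccl9*, which encodes a chemokine of macrophages, had 34.7, 23.3 and 34.5 in WBIR and 61.8, 61.2 and 50.04 with MSC-EVs, without overlap (log2FC 0.89 ± 0.53, unadjusted p of 0.116). Of 13 tested genes of the IL-1 family and inflammasome 12 had a log2FC above 0, with a median of 0.37, and without treated replicate 1 these were 8 and 0.10. Of 16 tested complement genes 15 were above 0 with a median of 0.17, and with TMM scaling 11 were above 0 with a median of 0.05. Without treated replicate 1, 14 complement genes were above 0 with a median of 0.31. No gene of either list was called, and in complement the groups overlapped in all 16. The 17 Toll-like receptor and adaptor genes had a median of 0.11, and the 15 genes of p53 response and apoptosis 0.02. *Fas*, which encodes a death receptor induced by p53, had the highest log2FC of the latter list, 0.47 ± 0.30 (unadjusted p of 0.137). The 8 tested genes of MHC class II presentation had a median of 0.09. The highest, *H2-Ob*, which encodes a modulator of peptide loading in B cells, had 27.0, 21.3 and 21.9 in WBIR and 82.4, 27.5 and 20.3 with MSC-EVs. Its log2FC was 0.72 ± 0.47, and 0.04 without treated replicate 1.

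The 10 genes of TGF-β signalling and matrix all had a log2FC above 0, with a median of 0.12, and with TMM scaling 5 were above 0. *Nt5e*, which encodes CD73, an ectoenzyme that forms adenosine and is also a surface marker of cultured MSCs, was the highest. It had 30.9, 35.4 and 40.4 scaled counts in WBIR and 64.7, 43.2 and 63.2 with MSC-EVs, without overlap (log2FC 0.66 ± 0.34, unadjusted p of 0.0765, and 0.57 without treated replicate 1). The 7 tested surface markers of cultured MSCs had a median of 0.05, and of 0.26 without treated replicate 1. Their summed scaled counts were 9296 to 13000 in WBIR and 9371 to 14034 with MSC-EVs.

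**Figure D4:**
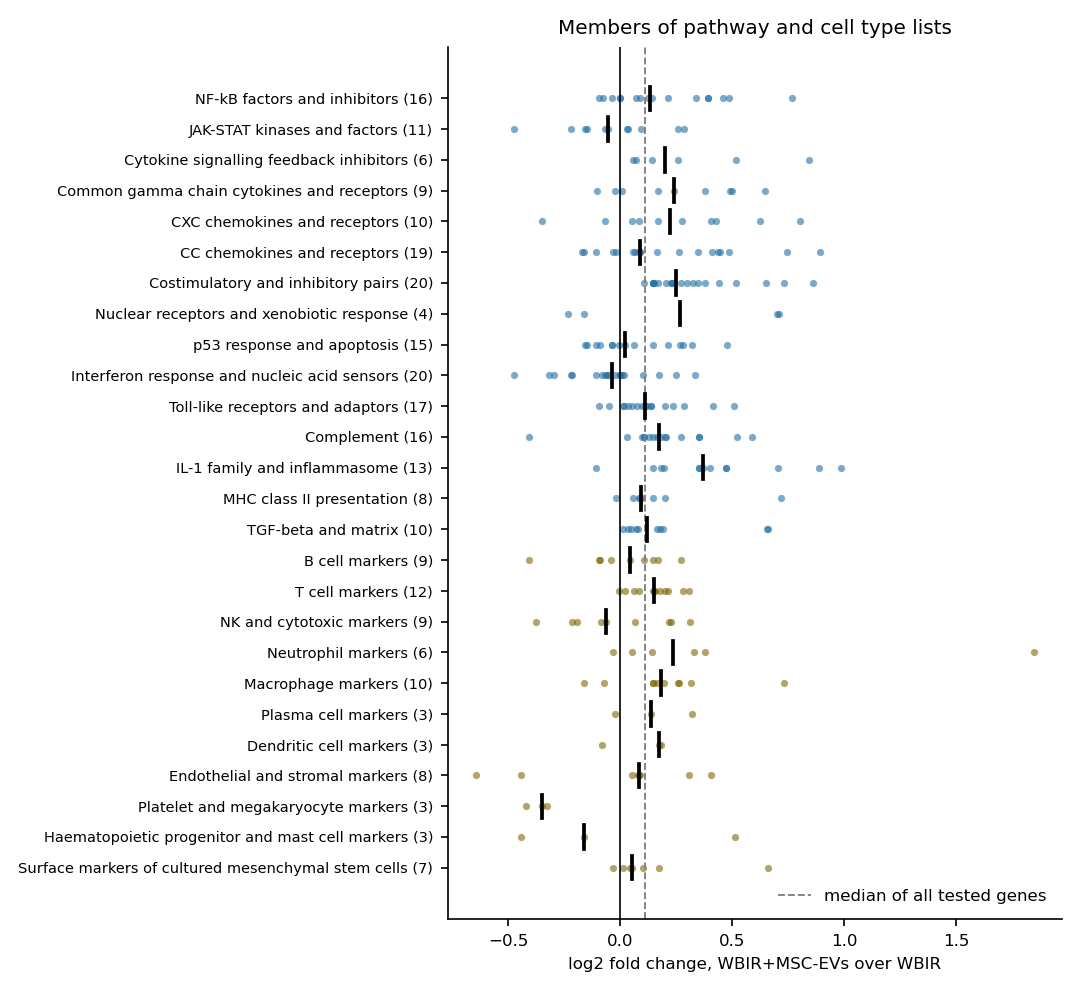
Log2FC of WBIR+MSC-EVs over WBIR (horizontal axis) for the tested members of 15 pathway lists (blue) and 11 cell type lists (brown), with the number tested in parentheses. Black bars are list medians and the dashed line is the median of all tested genes, 0.11. The members of the costimulatory list all lie above 0 and the 3 platelet genes all lie below 0.

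Markers of cell types were then compared, and in these suspensions of mixed spleen cells fewer cells of a type and less RNA per cell cannot be told apart. The 9 B cell markers, whose summed scaled counts were 16295 to 18629 in Sham, summed to 1001 to 1335 in WBIR and 1071 to 1189 with MSC-EVs. Their median log2FC was 0.04, and 5 of 9 were above 0. Without treated replicate 1 these were -0.05 and 4. The T cell markers summed to 1981 to 2495 in WBIR and 2241 to 2673 with MSC-EVs, with 11 of 12 tested genes above 0 and a median of 0.15. Without treated replicate 1, 7 of the 12 were above 0 and the median was 0.08. This list includes *Cd3eap*, an RNA polymerase I subunit whose name resembles those of the CD3 chains. Macrophage markers summed to 23675 to 38022 in WBIR and 24436 to 48907 with MSC-EVs, with 8 of 10 above 0 and a median of 0.18. Without treated replicate 1, 8 of the 10 were again above 0 and the median was 0.45. The scavenger receptor gene *Msr1* was the highest of the macrophage markers, with 288, 432 and 296 scaled counts in WBIR and 285, 957 and 432 with MSC-EVs. Its log2FC was 0.73 ± 0.40, and 0.09 without treated replicate 2 and 1.04 without treated replicate 1. *Pparg*, which encodes a nuclear receptor of lipid metabolism in macrophages, had the lowest log2FC of the list, -0.16 ± 0.27. Neutrophil markers summed to 3054 to 5978 in WBIR and 3495 to 10092 with MSC-EVs, with 5 of 6 tested genes above 0 and a median of 0.24 that was -0.63 without treated replicate 1. The 9 tested NK and cytotoxic markers had 4 above 0 and a median of -0.07, and 1 above 0 and a median of -0.55 without treated replicate 1. The groups overlapped in the summed level of each of these lists, and 0 of their genes were called. Alone among the cell type lists, summed haematopoietic progenitor and mast cell markers narrowly did not overlap, at 413.06 to 438.08 in WBIR and 373.76 to 412.94 with MSC-EVs. In both groups 4 of these 5 markers averaged under 20 raw counts, so the sum rested mainly on 1 gene. Of the 3 tested ones 2 had a log2FC below 0, and *Gfi1* was above 0 at 0.51.

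Platelet genes were lower within every same-numbered pair, with the pairing taken from these data rather than from the labels. *Ppbp*, which encodes a platelet chemokine, had 3881, 1543 and 2285 scaled counts in WBIR replicates 1, 2 and 3 and 2972, 1326 and 1761 in the treated replicates of the same number. Replicate 1 was highest and replicate 2 lowest in both groups, and the groups overlapped. *Itga2b* and *Gp1bb*, which encode subunits of platelet adhesion receptors, were also lower in all 3 pairs, and the median log2FC of the 3 genes was -0.35 (33 of all 426 genes, 7.75%, were lower in all 3 pairs). The tests did not separate the groups, with edgeR unadjusted p of 0.468, 0.415 and 0.449 and, with the block, 0.419, 0.338 and 0.403. Without WBIR replicate 1 the log2FC was 0.08 for *Ppbp* and 0.12 for *Gp1bb*.

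The same treatment was given to mice with radiation and burn, and the MSC-EV effect was compared between the injuries in one model. The comparisons share no samples. In RCI, 0 of 426 genes (0%) were called, 14 (3.29%) had an unadjusted p under 0.05, and the groups did not overlap in 46 (10.8%). Across the 426 genes the log2FC of the 2 injuries had a Pearson's r of 0.07 and a Spearman's rho of 0.06, given as a description, since genes are not independent and the values share one scaling. *Cxcr4* had nearly the same estimate in both, 0.80 ± 0.26 in WBIR and 0.81 ± 0.26 in RCI, as did *Socs1*, 0.52 ± 0.22 and 0.48 ± 0.21, and these were the 2 genes with an unadjusted p under 0.05 in both. The interval of the difference was -0.81 to 0.80 for *Cxcr4* and -0.61 to 0.68 for *Socs1*. *Cish* and *Cd69* had RCI estimates of 0.54 and 0.57. Of the 11 genes 8 had an RCI log2FC above 0, and the exceptions were *Nfkbia*, *Ptger4* and *Ccr6*.

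The test of the difference between the effects called 0 of 426 genes, with a smallest adjusted p of 0.998, and 11 genes (2.58%) had an unadjusted p under 0.05. The half-width of the interval of this difference had a median of 1.02, or about 2-fold, so only large differences could be seen. For *Nfkbia* the estimate was -0.30 in RCI, and the difference was 1.07 ± 0.47 (edgeR unadjusted p of 0.0385). Its scaled counts were 192, 230 and 543 in RCI and 203, 259 and 325 in RCI+MSC-EVs, and without RCI replicate 3 the difference was 0.45 with a p of 0.166. *Ptger4* had 36.8, 38.4 and 39.6 in RCI and 28.6, 31.0 and 29.8 with MSC-EVs, so that the treated samples were lower there and higher in WBIR (difference 1.02 ± 0.37, p of 0.0167, and 0.98 without RCI replicate 3). For *Ccr6* the difference was 0.96 ± 0.39 (p of 0.0260) and for *Ccl9* 1.71 ± 0.72 (p of 0.0320). Complement genes were also among the 11, and those named here were chosen after their values were seen. WBIR estimates were near 0 for *C4a*, *C3* and *Cfb*, at 0.27 ± 0.30, 0.18 ± 0.48 and 0.11 ± 0.57, against -0.98, -1.37 and -1.63 in RCI. Of all 16 tested complement genes, 7 had an RCI log2FC above 0, and the RCI median was -0.15. *C4a* has a near-identical copy in *C4b*, which the probe may also read. *Serping1*, which encodes the C1 inhibitor, had 0.52 in WBIR and -1.17 in RCI. Without RCI replicate 3, 3 genes had an unadjusted p under 0.05 for the difference.

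**Figure D5:**
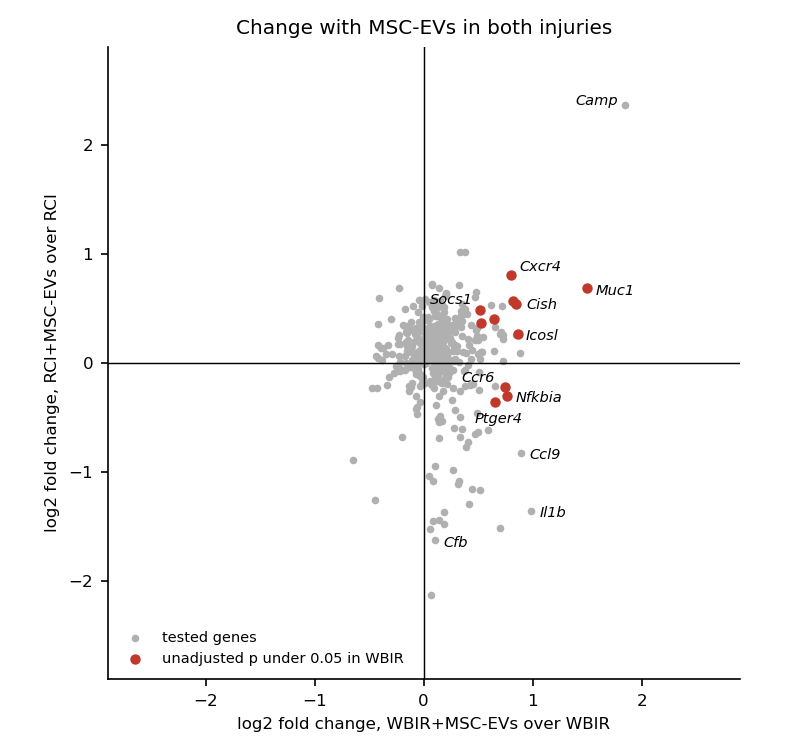
Log2FC of RCI+MSC-EVs over RCI (vertical axis) against log2FC of WBIR+MSC-EVs over WBIR (horizontal axis) for the 426 tested genes, with the 11 genes at an unadjusted p under 0.05 in WBIR in red. *Cxcr4*, *Socs1* and *Cish* lie above 0 on both axes, and *Nfkbia*, *Ptger4* and *Ccr6* lie below 0 on the RCI axis.

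The size of these differences was set beside the level in mice without injury. The 2 log2FC given for a gene use the same Sham samples, and the first of them uses the WBIR samples compared above. *Cxcr4* averaged 2812 ± 500 scaled counts in Sham (mean ± SD, n = 3), 118 ± 7.44 in WBIR and 206 ± 36.2 with MSC-EVs, so its log2FC against Sham was -4.57 without and -3.77 with MSC-EVs. *Icosl* averaged 817 in Sham, 44.0 in WBIR and 82.6 with MSC-EVs, and *Il7r* 4297, 188 and 296. *Nfkbia* averaged 1035 in Sham, 249 in WBIR and 424 with MSC-EVs, a log2FC against Sham of -2.06 and -1.29. For these genes the treated spleens stayed nearer to untreated irradiated spleens than to Sham on the log2 scale. *Socs1* averaged 183, 165 and 236, *Cish* 58.8, 49.8 and 90.5, and *Abcb1a* 99.2, 62.0 and 102, so the treated mean was above the Sham mean in *Socs1*, *Cish* and, slightly, *Abcb1a*.

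The 121 endogenous genes that the main fit did not test had a mean under 20 counts over the 15 samples. In the 6 samples of this comparison 103 of them stayed under 20 counts throughout and the highest single count of any was 38. Such low counts leave little precision for a change in these genes. A fit without the filter tested all 547 endogenous genes and called 0. In it 12 genes had an unadjusted edgeR p under 0.05, of which 10 were among the 11 of the main fit.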

How the data were processed

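Spleen RNA was counted on the nCounter panel in 15 samples, grouped by the sample labels. The authors made cell suspensions, lysed red blood cells, isolated RNA, hybridized it and counted barcodes, and according to the methods used nSolver for normalization. The deposited values are raw counts per gene, before that normalization, as their whole numbers and unequal totals show. The smallest stored count was 1, and zeros may have been raised to 1. No background was subtracted, since control probes were not analysed here.

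Each sample was scaled to the geometric mean of its 14 reference genes. The 426 endogenous genes whose counts averaged 20 or more across the 15 samples were tested with edgeR 4.0.16 in R 4.3.3 (glmQLFit, robust, and glmQLFTest, two-sided), with 1 coefficient per group and 10 residual degrees of freedom, Benjamini-Hochberg adjustment over all tested genes and a threshold of 0.05. The SE is the log2FC divided by the square root of F, and 95% intervals use the t quantile. Over all 15 samples, replicates varied by 33.1% (coefficient of variation, from a common dispersion of 0.110). In the compared groups the median SD of log2 scaled counts was 0.253 in WBIR and 0.314 in WBIR+MSC-EVs. Precision rests on counting error for low counts and otherwise on the spread of the 3 samples in every group of the fit. Each SE and p therefore also carries the spread of the Sham and RCI samples.

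Genes, lists and motifs were chosen with earlier results of these data known. Named are the 12 genes with the smallest p among higher genes, the 6 among lower ones (1 of them is not reported here), *Nfkbia*, *Cxcr4*, *Socs1* and *Stat5a* from the study's text, list members with the highest or lowest log2FC (not all printed), and some chosen after their values were seen (*Ahr*, *Irf1*, *Pdcd1*, *C3*, *C4a*, *Cfb*, *Serping1*, *Tnfaip3*, *Bcl3*, *Ptpn2*, *Ctla4* and *Cxcr5*). Gene names are those of the table. Promoters were RefSeq windows of GRCm38.p6.

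Same-numbered treated and untreated samples deviated together, with correlations across genes of 0.67, 0.37 and 0.22 in WBIR and 0.26, 0.32 and 0.51 in RCI, so the numbers were taken to pair the samples. Some samples correlated as well or better with another number (WBIR+MSC-EVs replicate 3 with WBIR replicate 2 at 0.51, RCI+MSC-EVs replicate 1 with RCI replicate 2 at 0.30, and RCI+MSC-EVs replicate 2 with RCI replicate 1 at 0.35). The pairing comes from these data, as the labels do not say what a number marks. Alternatives were TMM, median-of-ratios, total-count and stable-reference scaling, other filters, a floor of 20 counts, DESeq2 1.42.0, limma 3.58.1 on log2(scaled count + 10), a per-gene unequal-variance test, fewer samples in the fit, the replicate block, leaving out each sample, and, added after seeing the data, subtraction of 10 counts.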

Additional observations from a re-analysis of the deposited data

How the results depend on the processing

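The number of called genes was 0 for the MSC-EV effect in WBIR and 0 for its difference between injuries in every alternative run, so these alternatives changed neither. The 11 genes at an unadjusted p under 0.05 became 6 with TMM, 6 with median-of-ratios and 6 with total-count scaling, in each case 5 higher and 1 lower, and 17 with the per-gene unequal-variance test. They became 15 with only the 6 compared samples, 16 with the 12 irradiated samples and 16 with 10 counts subtracted. Pairing the samples with the replicate block gave 7, and the block changed no call. Leaving out single samples gave 3 to 14, lowest without WBIR replicate 2, and 167 to 274 genes with an interval within 2-fold, beside 232. All 11 genes stayed above 0 in every alternative, except that 2 of them were not in the fit with a filter at a mean of 50. Among the named genes, 10 log2FC values changed sign over these alternatives. *Cdh5* was 0.053 with counts under 20 set to 20. Over the fits that left out single samples, *Ppbp* ranged from -0.735 to 0.0751 and *Gp1bb* from -0.651 to 0.121, both highest without WBIR replicate 1. *Cxcl12* ranged from -0.0137 to 1.227 and *Klrd1* from -0.239 to 0.761, both lowest without WBIR+MSC-EVs replicate 1. *C3* ranged from -0.0895 to 0.729 and *Cfb* from -0.0047 to 0.188, both lowest without WBIR replicate 2. *C4a* ranged from -0.121 to 0.475, lowest without WBIR+MSC-EVs replicate 2. *Cfb* was -0.0091 with TMM and -0.0016 with total-count scaling. The cause of these changes was not tested. With 3 samples per group the median interval half-width was 0.73 on the log2 scale, or 1.65-fold. These intervals are not adjusted for the number of genes, so this width is not the smallest change that could be called. *Icosl* and *Cxcr4*, with log2FC of 0.86 and 0.80, lay beyond it and had an edgeR adjusted p of 0.997. The size of change that the adjusted test could detect was not tested.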
